A study of Mus musculus with 5 samples.

Results

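Superoxide dismutase genes, catalase and selenium-dependent antioxidant genes were followed across 5 RNA-seq libraries of B16F10 cells, an established mouse melanoma line. The 10 genes, Sod1, Sod2, Sod3, Cat, Gpx1, Gpx3, Gpx4, Selenop, Selenow and Txnrd1, were taken by symbol from a table of 54699 genes. They were chosen with results of these libraries in view, so their levels and ratios are given as a description. All 10 reached a normalised read count of 1 FPKM (fragments per kilobase of gene length, divided by a size factor for each library) in at least 1 library, as did 12842 genes in all. Every culture received a lentivirus and was grown in DMEM with serum. A first pair of libraries came from cells made to express mouse Myod1, the skeletal muscle transcription factor, or Pparg, the nuclear receptor of fat cell formation. Their control carried the empty expression vector, and these 3 libraries were collected on day 8. The other pair came from cells with a short-hairpin RNA against Setdb1, a histone H3 lysine methyltransferase, and from cells with the empty knockdown vector (shCtrl), both collected on day 7. The labels give both controls as wild type. Whether the cultures were selected or cloned is not given in the sources used here. With 1 library in a group, the differences have no replicate check and none was tested.

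Superoxide dismutases turn superoxide into hydrogen peroxide: Sod1 in the cytosol, Sod2 in mitochondria and Sod3 outside the cell. Catalase removes hydrogen peroxide in peroxisomes, and glutathione peroxidases reduce peroxides at the expense of glutathione, Gpx1 in the cytosol and mitochondria, Gpx3 in extracellular fluid and Gpx4 on lipid peroxides in membranes. Selenop (selenoprotein P) is a secreted carrier of selenium, Selenow (selenoprotein W) a small redox protein abundant in muscle, and Txnrd1 the cytosolic thioredoxin reductase. Pigment cells such as melanocytes and melanoma cells produce hydrogen peroxide while they make melanin. 

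The 6 selenoprotein genes share a feature that the superoxide dismutase and catalase genes lack, a TGA codon inside the reading frame that is read as selenocysteine. The codons are printed because they set this subset apart: each window is coding sequence of the GENCODE M21 transcript on GRCm38, 5′ to 3′, with the selenocysteine codon in capitals.
Gpx1: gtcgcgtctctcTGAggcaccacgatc
Gpx3: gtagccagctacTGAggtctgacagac
Gpx4: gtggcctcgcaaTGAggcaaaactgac
Selenow: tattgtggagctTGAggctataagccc
Selenop, first codon: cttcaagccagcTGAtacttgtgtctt
Txnrd1: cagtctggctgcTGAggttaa
The Gpx1 codon lies in exon 1 at chr9:108339451-108339453 (plus strand), codon 47 of 201. That of Gpx3 lies in exon 2 at chr11:54907256-54907258 (plus), codon 73 of 226, and that of Gpx4 in exon 3 at chr10:80054737-80054739 (plus), codon 129 of 253. The Selenow codon lies in exon 2 at chr7:15920464-15920466 (minus), codon 13 of 88. In Txnrd1 it is codon 612 of 613, in exon 15 at chr10:82896037-82896039 (plus), directly before the last codon and the stop codon. Selenop has 10 such codons, the first in exon 2 at chr15:3274848-3274850 (plus), codon 59 of 380. The last 6 stand close together in exon 5, at chr15:3279552-3279701.
Selenop, last 6 codons: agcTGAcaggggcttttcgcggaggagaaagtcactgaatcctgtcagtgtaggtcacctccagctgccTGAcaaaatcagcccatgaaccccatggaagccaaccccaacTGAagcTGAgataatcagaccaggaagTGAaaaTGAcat

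The libraries held 16214802 to 18300670 reads assigned to genes. Myod1 stood at 260 FPKM in its own library and Pparg at 44.4 FPKM in its own, and both were listed at 0 elsewhere. Setdb1 was at 0.867 FPKM in the knockdown and 9.82 FPKM in its control. The 7 melanocyte markers were detected in every library, with a summed level of 7583 and 8222 FPKM in the controls, 8985 FPKM with Setdb1 knockdown, 3110 FPKM with Myod1 and 2195 FPKM with Pparg. All 7 stood below control with Myod1 and with Pparg, 5 of them past 2-fold in each. With Setdb1 knockdown 3 stood above and 4 below, with a median log2 ratio of -0.08: Pmel, the most abundant of them there, was at 4347 FPKM against 2993, and Mitf, the melanocyte master regulator, at 13.7 against 41.6, past 2-fold. The 6 skeletal muscle markers summed to 21093 FPKM with Myod1 and 5.16 to 14.9 FPKM elsewhere. The 6 adipocyte markers summed to 317 FPKM with Pparg and 0.633 to 2.71 FPKM elsewhere, but Adipoq and Cidec stayed under 1 FPKM. Fibroblast markers summed to 0.438 to 2.52 FPKM, with Dcn and Lum at 0 throughout. Endothelial markers summed to 1.64 FPKM with Setdb1 knockdown, 0.202 in its control and 0.207 to 1.27 FPKM elsewhere, and Kdr was at 0 throughout. The 6 liver markers, chosen because liver is the main source of circulating Selenop, were at 0 in 4 libraries and summed to 0.175 FPKM with Setdb1 knockdown. Macrophage markers summed to 20.9 FPKM with Setdb1 knockdown against 5.54 in its control, and to 6.42 with Myod1 and 2.60 with Pparg against 13.6 in theirs. Most of this was Cd68, at 18.7 FPKM in the knockdown and 3.996 in its control, while Ptprc was at or under 0.0059 FPKM in every library. In bulk libraries fewer cells of a type and less RNA per cell cannot be told apart, and the part these marker levels play in the values given here was not tested.

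A gene was counted as changed at 2-fold or more on the log2 scale of FPKM plus 1, a scale that understates the change of low genes. With Myod1, 5 of the 10 genes were higher and 0 lower, where 14% of all genes compared were higher and 7.55% lower (21.6% in either direction). With Pparg, 6 were higher and 0 lower, against 4.22% and 2.3% (6.52% in all). With Setdb1 knockdown, 3 were higher and 1 lower, against 9.34% and 10.3% (19.7% in all). Between the empty vectors 0 of the 10 passed, and 2.67% of all genes did (1.23% higher and 1.44% lower). The controls differ in collection day as well as in vector, and so does each manipulated library from the control of the other kind. Against the control of the other vector kind, 5 were higher and 1 lower with Myod1 (all genes 15.1% and 7.51%, 22.6% in all), 6 and 1 with Pparg (5.52% and 2.41%, 7.93% in all), and 3 and 1 with Setdb1 knockdown (8.72% and 11%, 19.7% in all). The median log2 ratio of the 10 was 0.94 with Myod1, 1.39 with Pparg, 0.37 with Setdb1 knockdown and 0.12 between controls, where the median of all genes was 0.02, -0.02, 0.00 and -0.00. Since the genes were picked from these contrasts, nothing follows from these counts. The Myod1 library is also sensitive to its scaling: 1798 genes were higher and 970 lower as deposited, and 1238 and 1910 once columns were scaled to equal sums.

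**Figure D1:**
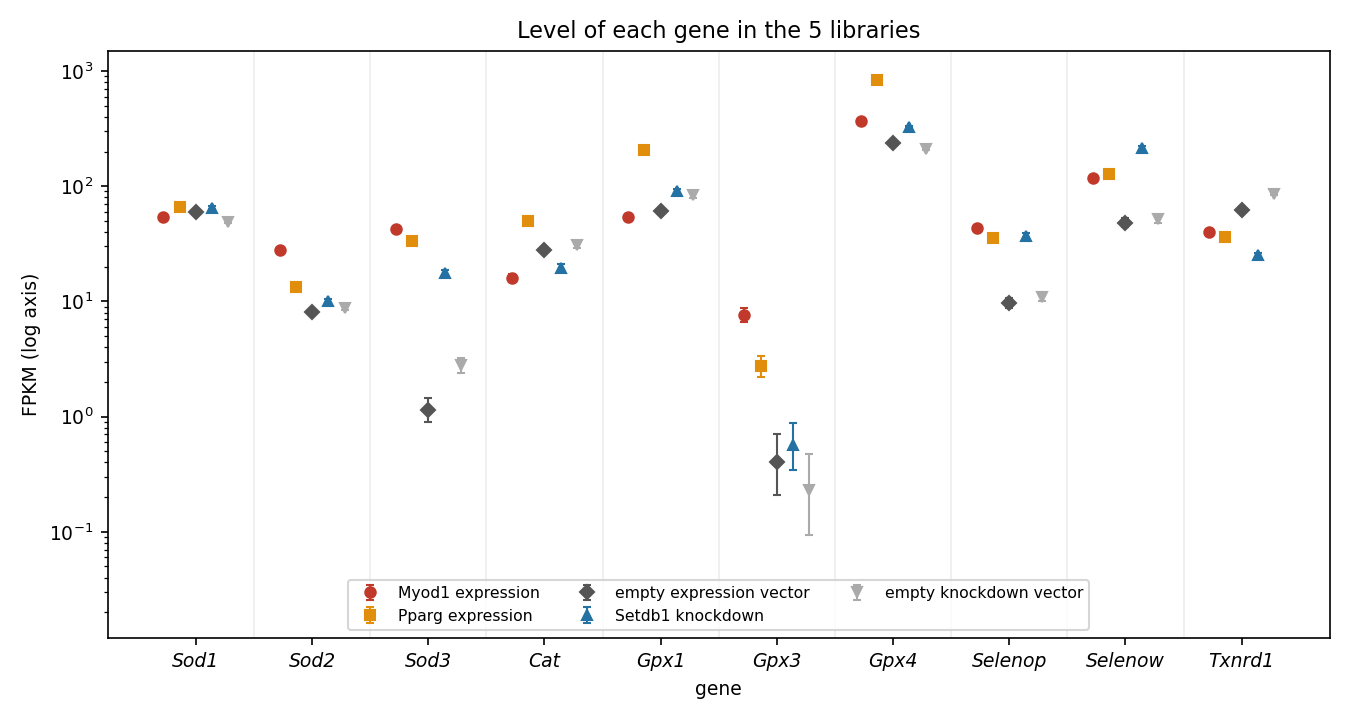
Level of each of the 10 genes in the 5 libraries, in FPKM on a log axis, with bars for the 95% counting interval of the reads. Sod3 spans 1.15 to 42.6 FPKM and Gpx3 0.231 to 7.61 FPKM, while Sod1 stays between 49.2 and 66.1 FPKM.

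The superoxide dismutase genes diverged. Sod3 (ENSMUSG00000072941, chr5:52363791-52371418, plus strand), the extracellular enzyme, was at 42.6 FPKM with Myod1, 33.4 with Pparg, 1.15 with the empty expression vector, 17.8 with Setdb1 knockdown and 2.78 with the empty knockdown vector. All 3 manipulated libraries stood above both controls. The reads behind these levels were 2506, 2390, 70, 1230 and 174, so the control levels are the least precise. Sod3 was 37.2-fold higher with Myod1 (95% counting interval 29.3 to 47.9), 29.1-fold with Pparg (22.9 to 37.5) and 6.39-fold with Setdb1 knockdown (5.45 to 7.53). Such intervals are exact for the reads of the 2 libraries and cover counting error alone, not the spread between cultures. The controls themselves differed, the knockdown vector being 2.43-fold higher (1.83 to 3.25), and the folds moved with them: against the other control Sod3 was 15.3-fold higher with Myod1, 11.98-fold with Pparg and 15.5-fold with Setdb1 knockdown.

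Sod2 (ENSMUSG00000006818, chr17:13006846-13040063, plus), the mitochondrial manganese enzyme, was at 27.7 FPKM with Myod1, 13.3 with Pparg, 8.09 with the empty expression vector, 10.1 with Setdb1 knockdown and 8.80 with the empty knockdown vector. The Myod1 library stood highest, 3.42-fold above its control (3.22 to 3.64), and the Pparg library came next at 1.64-fold, under the 2-fold limit. The counting intervals of the controls overlapped. Sod1 (ENSMUSG00000022982, chr16:90220754-90226329, plus), the cytosolic copper and zinc enzyme, was at 53.6, 66.1, 59.7, 65.1 and 49.2 FPKM in the same order. Its highest library was 1.34-fold above its lowest, and the levels with Pparg and Setdb1 knockdown overlapped in counting error. Sod1 shares 650 bases with the oppositely oriented gene Scaf4 (11.3 to 17.3 FPKM), and whether counting used strand is not given in the sources used here.

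Among the summed FPKM of the 3 superoxide dismutase genes, Sod3 made up 34.4% with Myod1, 29.6% with Pparg and 1.66% with their control, and 19.1% with Setdb1 knockdown against 4.58% in its control. These shares depend on the gene lengths used. The deposited length of Sod1, 3970 bases, is that of a transcript with a retained intron, 6.19 times the 641 bases of the coding transcript. With coding transcript lengths the share of Sod3 was 10.1% with Myod1, 7.16% with Pparg and 0.298% in their control, and 4.06% against 0.863% for the knockdown pair. The order of the 5 libraries by this share was the same under both lengths.

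Cat (ENSMUSG00000027187, chr2:103453849-103485160, minus) encodes catalase. It was at 15.97 FPKM with Myod1, 50.3 with Pparg, 27.8 with the empty expression vector, 19.7 with Setdb1 knockdown and 30.7 with the empty knockdown vector. The controls lay between the Pparg library above and the other two below, and their counting intervals overlapped. The level was 1.81-fold that of the control with Pparg (1.68 to 1.94), 0.574-fold with Myod1 (0.521 to 0.632) and 0.641-fold with Setdb1 knockdown (0.590 to 0.698). None of these reached the 2-fold limit, with log2 ratios of 0.83, -0.76 and -0.62, and Cat with Pparg was the value nearest below it.

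The 3 glutathione peroxidase genes among the 10 were all higher with Pparg. Gpx4 (ENSMUSG00000075706, chr10:80047166-80056439, plus), which reduces lipid hydroperoxides, was at 367 FPKM with Myod1, 844 with Pparg, 239 with the empty expression vector, 325 with Setdb1 knockdown and 212 with the empty knockdown vector. It had the highest level of the 10 genes in every library. It was 3.53-fold higher with Pparg (3.44 to 3.62), and 1.53-fold above control with Myod1 and with Setdb1 knockdown alike, both under the limit. Both log2 ratios were 0.62, and over the processing alternatives given below they went as low as 0.22 with Myod1 and 0.13 with Setdb1 knockdown. Reads of Gpx4 cannot be cleanly assigned, because the processed pseudogene Gpx4-ps2 (chr10:45875291-45876086) matches its transcript at 760 of 762 aligned bases and held 14.9 to 15.99% of the reads of the pair. Gpx4-ps2 was listed at 141, 341, 91.1, 134 and 84.9 FPKM in the same order. With the reads of both summed, the folds were 1.54 with Myod1, 3.56 with Pparg and 1.54 with Setdb1 knockdown.

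Gpx1 (ENSMUSG00000063856, chr9:108338903-108340343, plus), the cytosolic and mitochondrial enzyme, was at 53.7 FPKM with Myod1, 205 with Pparg, 60.9 with the empty expression vector, 91.4 with Setdb1 knockdown and 83.3 with the empty knockdown vector. The Pparg library stood above the other 4, 3.37-fold over its control (3.18 to 3.57) and 2.46-fold over the other control. The controls differed by 1.37-fold, which is more than Gpx1 differed from its own control with Myod1 (0.882-fold) or Setdb1 knockdown (1.10-fold). Gpx3 (ENSMUSG00000018339, chr11:54902453-54910377, plus), the extracellular enzyme, was at 7.61, 2.73, 0.405, 0.566 and 0.231 FPKM in the same order, from 217, 95, 12, 19 and 7 reads. It was 18.8-fold higher with Myod1 (10.5 to 36.9) and 6.75-fold with Pparg (3.69 to 13.5), and against the 7 reads of the other control 33.0-fold (15.7 to 83.0) and 11.8-fold (5.53 to 30.2). The fold of 2.45 with Setdb1 knockdown had an interval that included 1 (0.987 to 6.90), so a difference was not detectable at this depth.

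Selenop, the selenium carrier, and Selenow, the small redox protein, were higher in all 3 manipulated libraries than in both controls. Selenop (ENSMUSG00000064373, chr15:3268547-3280508, plus) was at 43.7 FPKM with Myod1, 35.3 with Pparg, 9.69 with the empty expression vector, 37.3 with Setdb1 knockdown and 11.0 with the empty knockdown vector. The controls overlapped in counting error, as did Pparg and Setdb1 knockdown, and the manipulated libraries all stood higher: 4.50-fold (4.06 to 5.00), 3.65-fold (3.29 to 4.05) and 3.38-fold (3.07 to 3.73). Selenop shares 439 bases with the oppositely oriented Ccdc152, which was listed at 0 in 4 libraries and at 0.423 FPKM with Pparg. Selenow (ENSMUSG00000041571, chr7:15917208-15922402, minus) was at 117, 126, 48.4, 215 and 51.9 FPKM in the same order. It was 2.42-fold higher with Myod1 (2.20 to 2.67), 2.61-fold with Pparg (2.38 to 2.87) and 4.14-fold with Setdb1 knockdown (3.80 to 4.52). Its log2 ratio of 1.26 with Myod1 was the smallest that passed the limit, and it was 0.87 with columns scaled to equal sums.

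Txnrd1 (ENSMUSG00000020250, chr10:82833951-82897712, plus) went the other way. It was at 39.9 FPKM with Myod1, 36.2 with Pparg, 62.6 with the empty expression vector, 25.3 with Setdb1 knockdown and 85.9 with the empty knockdown vector. All 3 manipulated libraries stood below both controls. With Setdb1 knockdown the level was 29.5% of control (0.295-fold, 0.283 to 0.306), and it was 0.637-fold with Myod1 and 0.578-fold with Pparg, which did not reach the limit. The controls differed by 1.37-fold, and against the other control Txnrd1 passed the limit in all 3, at log2 ratios of -1.09, -1.23 and -1.27. The gene overlaps Eid3 on the same strand and Gm38560 on the other, which were listed at 0.0414 to 0.825 FPKM and 0.669 to 1.38 FPKM.

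**Figure D2:**
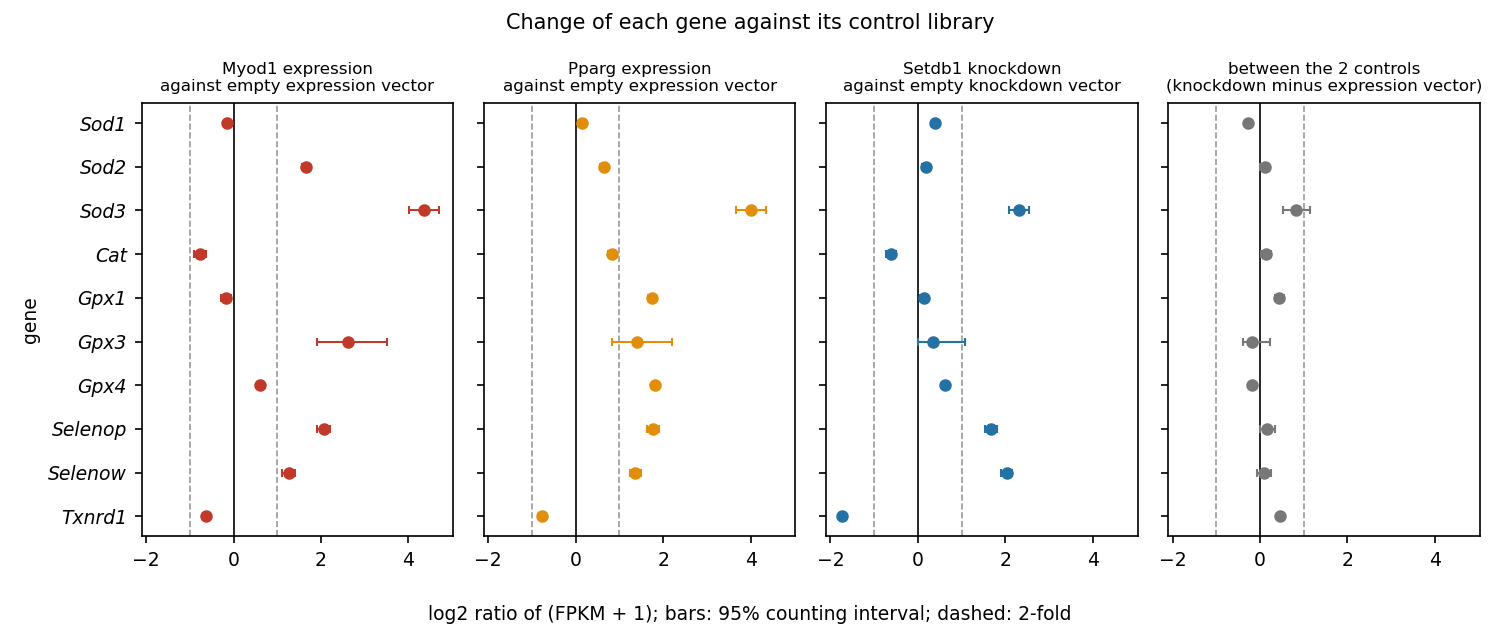
Log2 ratio of FPKM plus 1 for the 10 genes in the 3 comparisons and between the controls, with dashed lines at 2-fold. Sod3, Selenop and Selenow lie above the upper line in all 3 comparisons, and Txnrd1 below the lower line with Setdb1 knockdown.

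Sod3, Selenop and Selenow were thus counted as higher in each comparison. The Myod1 and Pparg libraries share a control, so the comparisons are not independent. The share of all genes higher in every comparison was not taken, so this joint count has no background beside it. Against each of both controls, the genes that passed were Sod2, Sod3, Gpx3, Selenop and Selenow with Myod1 (all genes 11.9% higher, 4.42% lower), Sod3, Gpx1, Gpx3, Gpx4, Selenop and Selenow with Pparg (3.34% and 0.849%), and Sod3, Selenop and Selenow higher (5.8%) and Txnrd1 lower (7.56%) with Setdb1 knockdown. These are the genes that passed against the control of the same vector kind.

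**Figure D3:**
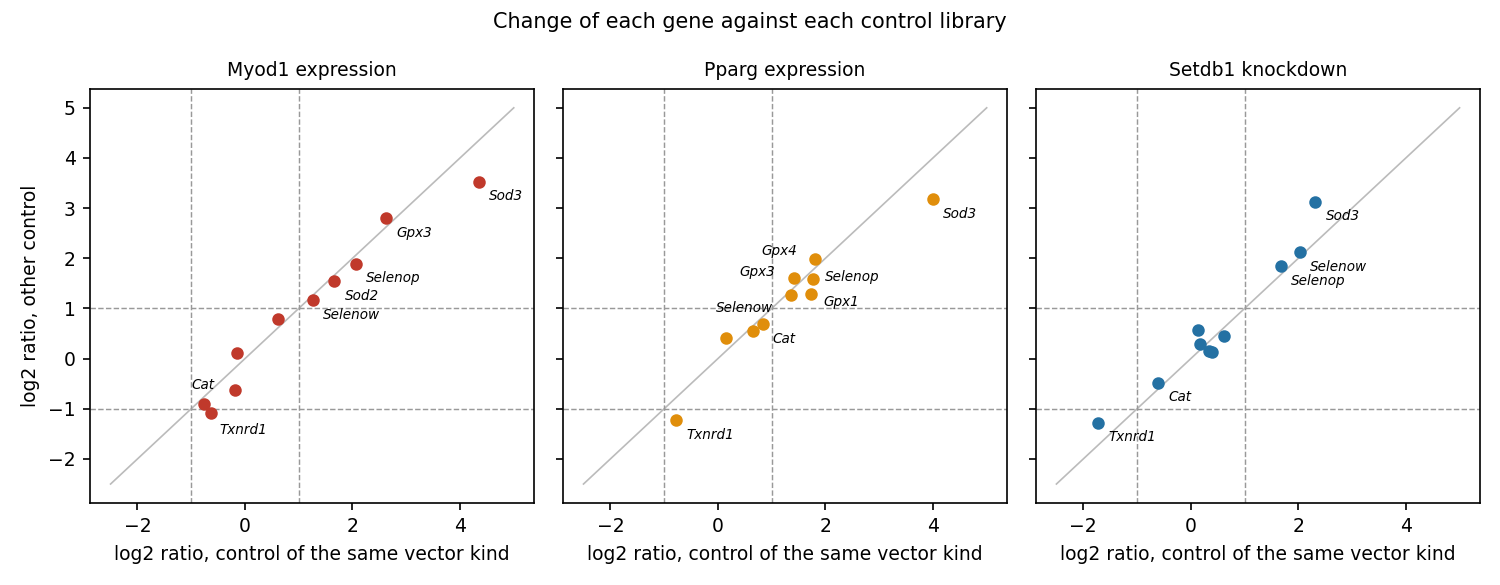
Log2 ratio of each gene against the control of the same vector kind (horizontal) and against the other control (vertical), 1 panel per manipulated library, with the diagonal marking equality and dashed lines at 2-fold. Sod3 lies farthest from the diagonal, and Txnrd1 is past the lower line on the vertical axis in all 3 panels.

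The 3 genes whose products are secreted, Sod3, Gpx3 and Selenop, summed to 93.9 FPKM with Myod1, 71.4 with Pparg and 11.2 in their control, and to 55.7 with Setdb1 knockdown and 14.0 in its control. The sums stood 8.35-fold, 6.35-fold and 3.96-fold above control. The other 7 genes summed to 675, 1341, 507, 752 and 522 FPKM in the order of libraries used above, 1.33-fold, 2.65-fold and 1.44-fold above control. Gpx4 alone made up 54.4%, 62.9%, 47.2%, 43.3% and 40.6% of these sums in the same order. This grouping by place of action was made after the values had been seen, and it carries no test.

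Promoter windows of 300 bases, from 250 before to 50 after each RefSeq start site on GRCm38.p6, were available for 9 of the 10 genes (16 windows, all but Sod3). They were searched on both strands for CAGCTG, an E-box of the kind that Myod1 binds, for the repeat bound by Pparg with its partner receptor (AGGTCA, any base, AGGTCA), and for TGACNNNGC, the core of the antioxidant response element bound by Nrf2. No overlap between the motifs was scored. CAGCTG was found in 4 of 16 windows (25%), 1 of Gpx4 and 3 overlapping windows of Selenop that share sites, so in 2 of 9 genes, and in 16.3% of 32851 windows of all genes. TGACNNNGC was found in 2 of 16 (12.5%), of Sod1 and Txnrd1, and in 12.4% of all. The AGGTCA repeat was found in 0 of 16 and in 0.0396% of all windows. A match is a description of the letters and not a binding site. The sequences are shown for Selenop, among the genes higher in all 3 comparisons, and Txnrd1, the gene that was lower, up to annotated exons and with the match in capitals.
Selenop, chr15:3270517-3270766, plus strand: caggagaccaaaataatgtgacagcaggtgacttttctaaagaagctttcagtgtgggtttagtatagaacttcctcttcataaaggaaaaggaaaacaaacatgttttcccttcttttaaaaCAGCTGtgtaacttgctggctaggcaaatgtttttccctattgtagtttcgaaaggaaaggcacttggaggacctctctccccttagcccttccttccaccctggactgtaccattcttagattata
Txnrd1, chr10:82859009-82859178, plus strand: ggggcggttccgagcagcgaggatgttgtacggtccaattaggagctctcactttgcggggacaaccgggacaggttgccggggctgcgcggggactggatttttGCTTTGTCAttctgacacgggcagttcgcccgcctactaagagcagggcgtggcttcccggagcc
The first base of the match stands 127 bases before the start site of this Selenop window and 92 bases before that of this Txnrd1 window. Both genes have other RefSeq start sites: the same Selenop match lies at -171 from another, and TGACNNNGC was not found in the windows of the other Txnrd1 sites.

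Counts in the other lists of the pathway stand beside the same shares of all genes as above: 14% higher and 7.55% lower with Myod1, 4.22% and 2.3% with Pparg, and 9.34% and 10.3% with Setdb1 knockdown. The lists are small, so 1 gene is a large share of each. Of the other selenoprotein genes, 13 of 17 reached 1 FPKM and were compared. With Myod1 3 were higher and 0 lower, with Pparg none passed, and with Setdb1 knockdown 1 was higher and 2 lower, with median log2 ratios of 0.26, 0.06 and 0.42. Msrb1, a methionine sulfoxide reductase, stood at 42.7 FPKM against 18.2 with Myod1. Its log2 ratio of 1.19 was 0.81 with columns scaled to equal sums and 0.99 after removing the trend with GC content, and the count of 3 became 0 and 1. Of all genes, 24.5% and 20.3% changed with Myod1 under these settings. With Setdb1 knockdown Txnrd3, another thioredoxin reductase, stood at 1.52 FPKM against 11.2 and Selenot at 12.3 against 42.0, and both stayed past 2-fold in every alternative. Selenot was at 0.293-fold of its own control and 0.449-fold of the other. Selenom, a protein of the endoplasmic reticulum, stood at 57.6 against 23.1, with a log2 ratio of 1.28 that was 0.93 after removing the GC trend. Txnrd1 and Txnrd3 were thus both among the lower genes there, while Txnrd2, the mitochondrial thioredoxin reductase, named after its values were seen to complete the family, was at 13.1 FPKM against 11.9. Of 5 other glutathione peroxidase genes Gpx8 alone was compared, at log2 ratios of -0.26, 0.18 and 0.79. Against the other control these were -0.73, -0.29 and 1.26, so the sign turned with Pparg and the Setdb1 value passed 2-fold.

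The machinery that places selenocysteine and supplies selenium, 9 of 10 genes compared, had 1 gene higher and 2 lower with Myod1, none changed with Pparg and 1 lower with Setdb1 knockdown. The medians were -0.39, -0.07 and -0.37. With Myod1 Lrp8, a Selenop receptor, stood at 1.15 FPKM against 4.44. Eefsec, the elongation factor that delivers the selenocysteine tRNA, stood at 35.7 against 73.8, but its log2 ratio of -1.03 was -0.87 against the other control. Trnau1ap, a tRNA-associated protein, stood at 19.7 against 7.97, a log2 ratio of 1.21 that was 0.84 with equal column sums. With the GC trend removed 5 rather than 3 genes of the list passed with Myod1, where 20.3% of all genes did. Scly, which recovers selenium from selenocysteine, stood at 19.7 FPKM against 45.5 with Setdb1 knockdown, where 2 rather than 1 passed against the other control.

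Peroxiredoxins reduce peroxides with electrons from thioredoxin, and glutaredoxins draw theirs from glutathione. The list of 16 genes, all compared, also held the sestrins Sesn1 and Sesn2, Srxn1 and Txnip. With Myod1 5 were higher and 0 lower, with Pparg 2 and 0, and with Setdb1 knockdown 4 and 1. These counts moved with the processing. With equal column sums 2 changed with Myod1, where 24.5% of all genes did. Against the other control 3 were higher and 1 lower with Myod1, 3 and 1 with Pparg, and 2 and 0 with Setdb1 knockdown. Prdx5 stood at 81.3 FPKM against 28.1 with Myod1 and stayed past 2-fold in every alternative. So did Sesn2, a stress-induced sestrin, at 129 FPKM against 21.7 with Setdb1 knockdown. Prdx3, the mitochondrial peroxiredoxin, stood at 158 against 74.96 with Pparg, but its log2 ratio of 1.06 was 0.59 against the other control. Txn1, the thioredoxin that Txnrd1 reduces, stood at 112 against 234 with Setdb1 knockdown, a log2 ratio of -1.05 that was -0.99 against the other control and -0.92 after removing the GC trend. Txnip, the thioredoxin inhibitor, was higher with Pparg (71.8 against 29.6 FPKM) and with Setdb1 knockdown (57.2 against 11.0). It had a log2 ratio of -1.36 between the controls, and against the other control its log2 ratio with Setdb1 knockdown was 0.93.

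Of 11 genes for the synthesis and reduction of glutathione, 1 was higher and 5 lower with Myod1, 0 and 1 with Pparg, and 1 and 0 with Setdb1 knockdown, with medians of -0.92, -0.39 and 0.17. Against the other control the counts were 1 and 6, 1 and 1, and 1 and 2. G6pdx, the first enzyme of the pentose phosphate pathway that supplies NADPH, stood at 23.3 FPKM against 104 with Myod1, past 2-fold in every alternative. Slc7a11, the cystine importer, stood at 4.10 FPKM in the control, 0.320 with Myod1 and 0.899 with Pparg. It was at 2.56 FPKM in the other control, against which its log2 ratio was -1.43 with Myod1 and -0.91 with Pparg, so the Pparg value no longer passed. Chac1, which degrades glutathione, was 2.89-fold above control with Setdb1 knockdown but lower against the other control (log2 ratio -1.37).

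Regulators and targets of Nrf2, a group that includes the reducing enzymes induced by oxidative stress, numbered 11. With Myod1 1 was higher and 4 lower, with Pparg none passed, and with Setdb1 knockdown 2 were higher and 1 lower, with medians of -0.33, -0.17 and 0.52. Against the other control 1 was higher and 2 lower with Myod1. Nqo1, a quinone reductase, was at 1.23 FPKM against 4.38 with Myod1 and at 12.2 against 4.35 with Setdb1 knockdown, both past 2-fold in every alternative. Going the other way, Akr1b8 was at 161 FPKM against 54.2 with Myod1, and Abcc1 at 2.30 against 7.17 with Setdb1 knockdown. These values also stayed past 2-fold in every alternative. Hmox1, heme oxygenase, was at 171 FPKM against 45.6 with Setdb1 knockdown, 3.75-fold. It was at 84.9 FPKM in the other control, against which the fold was 2.02.

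**Figure D4:**
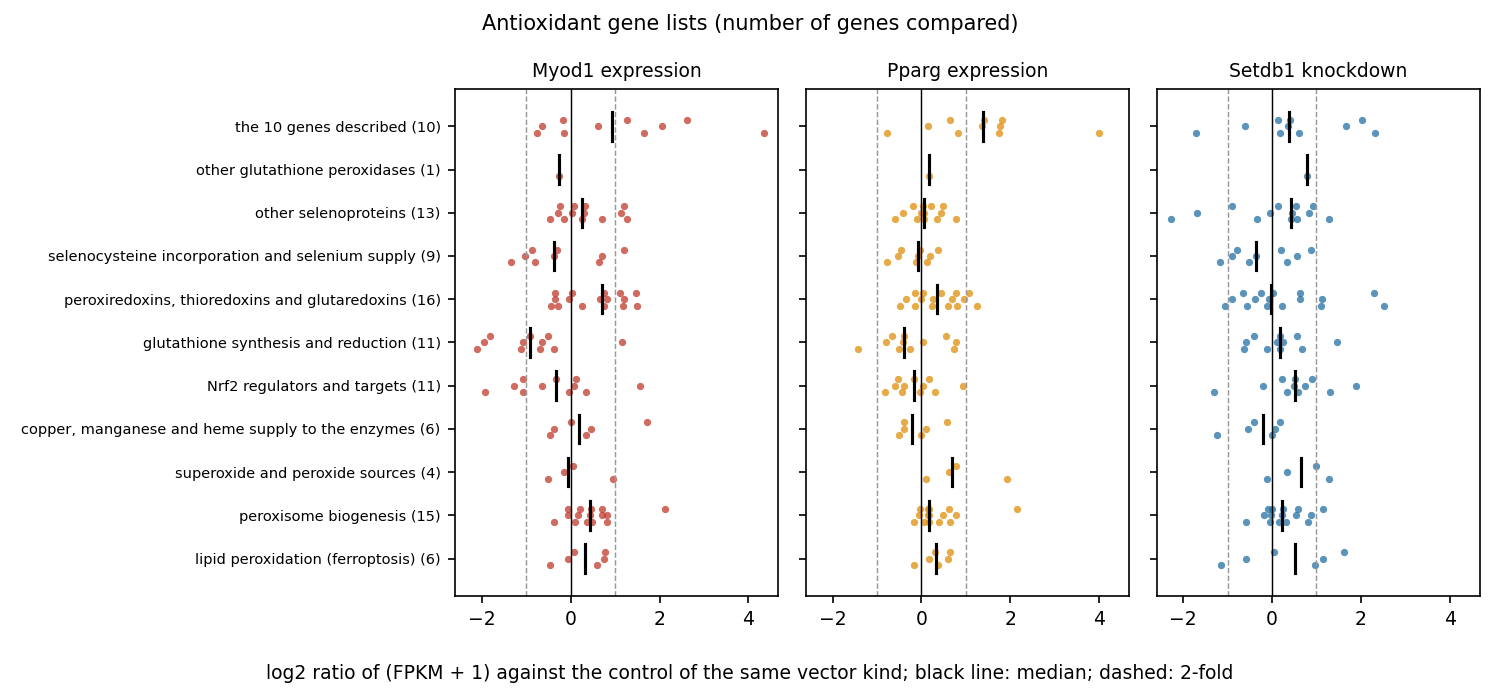
Log2 ratio of FPKM plus 1 for each gene of the 10 and of the other lists, 1 point per gene, in the 3 comparisons, with a black line at each list's median and dashed lines at 2-fold. Glutathione synthesis and reduction has its median at -0.92 with Myod1, below those of the other lists there.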

How the data were processed

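Gene-level FPKM values were deposited by the authors for 5 libraries prepared with a NEBNext kit. The submitters' processing notes name CASAVA, HISAT2, featureCounts 1.5.0-p3 and GRCm38, with no roles or settings. The deposited FPKM times gene length gave whole multiples of a single step in each library (100% whole within 0.001), so reads per gene were recovered from the deposited values. The divisors equal median-of-ratios size factors times the geometric mean of totals, so the FPKM are already scaled between libraries. Gene lengths were deposited in the same table.

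Log2 ratios were taken on FPKM plus 1 among 12842 genes at 1 FPKM or more in at least 1 library, and a gene was counted at 2-fold or more. Counting intervals (95%) were exact Poisson for levels and exact binomial for folds; they assume independent reads and cover counting error only. With 1 library per group no test was made. All 10 genes were named in every library, and of each other list at most the 2 highest and 2 lowest changed genes per comparison. The members and lists were chosen with earlier results of these data known. Alternatives were a pseudocount of 0.1, other filters and scalings, the other control and a 1.5-fold limit. Removing a trend with GC content and summing Gpx4 with its pseudogene were chosen after seeing the data. Ratios were tested on simulated data. Chromosome, start and end were the same in GENCODE M21 for 98.3% of the 54409 shared identifiers and for all 10 genes. Python 3.11.15, pandas 2.3.3, scipy 1.17.1 and biopython 1.88 were used.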

Additional observations from a re-analysis of the deposited data

How the results depend on the processing

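No paired analysis was possible because each group has 1 library, which leaves nothing to pair. Of the 15 values past 2-fold in the 3 comparisons, 15 kept their sign in every alternative and 14 also stayed past the limit. The exception was Selenow with Myod1, at 0.87 with columns scaled to equal sums. Of 314 values of the 10 genes under the alternatives, controls included, 81 moved beyond their counting interval. With Myod1 the median of all genes was -0.27 after scaling to equal sums and -0.11 after scaling to the 75th percentile. It was 0.02 as deposited. Relative to the median under equal sums Selenow was at 1.14. At a limit of 1.5-fold, 8 rather than 5 genes passed with Myod1, 9 rather than 6 with Pparg, 6 rather than 4 with Setdb1 knockdown and 1 rather than 0 between controls, where 43.7%, 19.2%, 43.7% and 10.3% of all genes passed. With a pseudocount of 0.1, Sod3 passed between controls (1 rather than 0, at 1.21), as did Gpx3 with Setdb1 knockdown (1.01).

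Values that newly passed with columns scaled to equal sums were Cat with Myod1 (-1.13) and Txnrd1 with Myod1 (-1.02). Relative to the median of all genes under that scaling they were at -0.87 and -0.75. Small differences changed sign for Gpx1 with Setdb1 knockdown, at -0.22 after removing the GC trend, and for Sod1 with Myod1, at 0.12 against the other control. Over all genes, a 1.5-fold limit gave 5609 rather than 2768 with Myod1, 2465 rather than 837 with Pparg, 5616 rather than 2526 with Setdb1 knockdown and 1325 rather than 343 between controls. A pseudocount of 0.1 gave 1729, 4027 and 952 for the last 3. Among the genes changed 2-fold with Myod1, 65.0% were higher, 39.3% with equal sums and 52.7% at the 75th percentile. Depth limits Gpx3 most, with 7 to 19 reads in 3 libraries. In the pathway lists 59 of 350 counts moved by over 1.5 times, or to or from 0. Of 37 changed values taken from the lists by the naming rule, 22 stayed past 2-fold in every alternative other than the limit, 10 did not against the other control, 7 with the GC trend removed and 4 with equal column sums.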

Other observations

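Of 15 peroxisome biogenesis genes, 1 was higher in each of the 3 comparisons and 0 were lower, where 14%, 4.22% and 9.34% of all genes were higher. These were Pex19 with Myod1, at 116 FPKM against 25.7, and Pex11a, which promotes peroxisome division, with Pparg at 17.6 against 3.15, both past 2-fold in every alternative. The third was Pex16 with Setdb1 knockdown at 20.7 against 8.76, a log2 ratio of 1.15 that was 0.74 against the other control (11.9 FPKM) and 0.66 after removing the GC trend. Of 12 genes for sources of superoxide and peroxide 4 were compared. Maoa stood at 70.1 FPKM against 17.8 with Pparg, 3.94-fold, and at 2.03-fold against the other control (34.5 FPKM).

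Of 8 genes for copper, manganese and heme supply 6 were compared. With Myod1 1 was higher and 0 lower, with Pparg none passed, and with Setdb1 knockdown 0 were higher and 1 lower. Of all genes 14% were higher and 7.55% lower with Myod1, 4.22% and 2.3% with Pparg, and 9.34% and 10.3% with Setdb1 knockdown. Fech, the last enzyme of heme synthesis, stood at 79.8 FPKM against 23.5 with Myod1. Atp7a, a copper pump, stood at 2.37 against 7.01 with Setdb1 knockdown, a log2 ratio of -1.25 that was -0.99 after removing the GC trend. Of 8 lipid peroxidation genes 6 were compared. None passed 2-fold with Myod1 or Pparg against their own control. Against the other control 1 was higher in each, where 15.1% and 5.52% of all genes were higher. With Setdb1 knockdown 2 were higher and 1 lower, against 9.34% and 10.3% of all genes. After removing the GC trend 1 changed there, where 15.8% of all genes did. Gch1 stood at 3.59 FPKM against 0.497 and stayed past 2-fold in every alternative. Por stood at 68.3 against 30.4, a log2 ratio of 1.14 that was 0.68 against the other control and 0.70 after removing the GC trend. Acsl4, which loads polyunsaturated fatty acids into membrane lipids, stood at 1.55 against 4.66, a log2 ratio of -1.15 that was -0.63 after removing the GC trend.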
